A study of Homo sapiens with 9 samples.

Results

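The genes described here encode the enzymes that place methyl groups on histone lysines and the enzymes that take them off. They were chosen by symbol from the table of read counts: every symbol beginning with KMT2, KMT5, KDM1 to KDM8, SETD, EHMT or SUV39H, the symbols NSD1, NSD2 and NSD3, and EZH1, EZH2, DOT1L and ASH1L. Of the 11350 genes in the table, 45 met this rule, 30 of them methyltransferases or proteins of the same SET-domain family and 15 demethylases. RefSeq lists 51 protein-coding genes under such symbols, and the other 6 (KDM4D, KDM4E, KDM4F, KDM5D, KDM8 and SETDB2-PHF11) were not in the table. No member was removed by a filter here, though the table itself held no gene with fewer than 41 counts in total. Of the 45 members, 44 had at least 10 counts in every library. The exception was SETD9, whose smallest count was 5.

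Methylation of a histone lysine does not change its charge but creates a docking site, and its meaning depends on the residue. Methylated H3K4, H3K36 and H3K79 mark promoters, enhancers and transcribed gene bodies, whereas methylated H3K9, H3K27 and H4K20 mostly go with silent or compacted chromatin. Almost all writers use a SET domain and S-adenosylmethionine as the methyl donor, DOT1L being the enzyme without a SET domain, and the erasers are either flavin-dependent amine oxidases (KDM1A, KDM1B) or Jumonji dioxygenases, which need iron and alpha-ketoglutarate.

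RNA was sequenced from HCT116, a human colorectal carcinoma line, in 3 forms that were all left untreated: parental cells (HUWE1-P), and cells whose endogenous HUWE1 gene, which encodes a large HECT-type ubiquitin ligase, was replaced at its end by a template coding either for the original cysteine (HUWE1-WT) or for serine (HUWE1-CS) at the catalytic position. Both edited lines also carry the self-cleaving P2A site and the blasticidin resistance gene of the template and were grown from single cells after selection with puromycin and blasticidin, so HUWE1-WT shares with HUWE1-CS the editing, the cassette and the cloning, and HUWE1-P shares none of these. Each form had 3 libraries of polyadenylated RNA. The study's text leaves unstated if a single clone supplied the 3 libraries of an edited line. The mutation and a property of a clone therefore cannot be told apart. The p-values measure counting error and a spread between these libraries that was estimated largely over all genes together.

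The libraries held 1610984 to 2060349 counts, of which the 45 genes took 0.301% to 0.349%, and 3 counts corresponded to 1.45 to 1.86 normalized counts relative to a library of standard size (CPM, scaled by the trimmed mean of M values, TMM). HUWE1 itself averaged 543 CPM in HUWE1-P, 469 CPM in HUWE1-WT and 336 CPM in HUWE1-CS cells. In the tests described further on, HUWE1 had a log2 fold change in HUWE1-CS cells of -0.69 against HUWE1-P (edgeR adjusted p = 1.06e-15). Against HUWE1-WT it was -0.48 (edgeR adjusted p = 4.68e-09), and all HUWE1-CS libraries lay below all controls. The cause was not tested. A change of a single residue does not by itself remove the transcript, so the HUWE1 level does not check the genotype labels. The labelled tissue matched its markers, since 6 of 6 epithelial genes were in the table, EPCAM at 345 to 470.3 CPM and KRT8 at 1603 to 2217 CPM. Of the markers of other cells, 1 of 4 fibroblast genes (COL1A1, 8.71 to 25.6 CPM), 1 of 4 immune genes (CD68, 6.39 to 14.5 CPM) and 0 of 3 endothelial genes were listed. Bulk libraries such as these cannot tell fewer cells of a state from less RNA per cell.

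Promoter sequence is shown for the members that differed between HUWE1-CS and HUWE1-WT cells in the comparisons described further on, because these members moved in opposite directions and their upstream regions differ widely in base composition. DOT1L, the remaining member of that set, had no entry in the RefSeq promoter table used here, nor had SETD1B and NSD3, and 42 of 45 members were matched. Each line gives the 250 bases before the annotated start, 5′ to 3′ on the strand of the gene, from RefSeq on GRCh38.p14. Capitals mark matches on either strand to the E-box CACGTG, the GC box GGGCGG, the CCAAT box CCAAT, the TATA box TATAAA and the ETS motif CCGGAAG. SETD7 lies at chr4:139556220-139556469 (minus strand), EHMT2 at chr6:31897699-31897948 (minus), SETDB1 at chr1:150926013-150926262 (plus) and KDM7A at chr7:140176984-140177233 (minus).
SETD7: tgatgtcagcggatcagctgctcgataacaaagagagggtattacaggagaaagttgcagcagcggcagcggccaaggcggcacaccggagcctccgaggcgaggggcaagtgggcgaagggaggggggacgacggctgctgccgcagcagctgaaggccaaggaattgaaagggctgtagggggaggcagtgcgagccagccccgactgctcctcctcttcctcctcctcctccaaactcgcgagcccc
EHMT2: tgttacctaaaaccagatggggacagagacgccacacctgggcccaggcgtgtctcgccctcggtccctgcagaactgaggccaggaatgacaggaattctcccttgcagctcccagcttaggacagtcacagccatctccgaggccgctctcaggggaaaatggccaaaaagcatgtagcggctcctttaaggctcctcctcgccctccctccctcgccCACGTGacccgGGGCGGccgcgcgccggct
SETDB1: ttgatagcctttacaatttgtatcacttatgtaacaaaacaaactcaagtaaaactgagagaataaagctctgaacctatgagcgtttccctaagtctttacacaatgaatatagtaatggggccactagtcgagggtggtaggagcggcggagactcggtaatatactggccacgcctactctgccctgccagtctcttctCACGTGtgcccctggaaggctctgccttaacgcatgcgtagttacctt
KDM7A: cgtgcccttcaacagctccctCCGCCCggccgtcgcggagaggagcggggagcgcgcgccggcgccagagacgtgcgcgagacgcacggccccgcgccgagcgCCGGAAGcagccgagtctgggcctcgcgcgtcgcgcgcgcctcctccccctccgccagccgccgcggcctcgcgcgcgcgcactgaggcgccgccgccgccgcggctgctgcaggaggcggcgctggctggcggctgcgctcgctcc

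The window of KDM7A was 81.6% G or C with 50 CpG dinucleotides, a GC box and an ETS motif, and that of SETDB1 was 46% G or C with 9 CpG dinucleotides. SETD7 held none of the 5 motifs. EHMT2 and SETDB1, the H3K9 methyltransferases that were higher in HUWE1-CS than in HUWE1-WT cells, each held a CACGTG, the preferred sequence of MYC-MAX and USF dimers. This hexamer was present in 8 of the 42 member windows (19.0%), also in KMT2D, NSD1, SETD6, KDM4B, KDM4C and KDM6A, against 845 of the 9040 promoter windows of genes in the table (9.35%). For NSD1, and for EZH1, the bases after the window matched no annotated transcript of the gene, so their windows are less certain. The other motifs were in 32 members for the GC box (76.2%, against 70.2% of all windows), 14 for CCAAT (33.3%, against 35.5%), 5 for the ETS motif (11.9%, against 17.3%) and 0 for TATAAA (against 4.58%). The member windows had a median of 25 CpG dinucleotides, and all windows a median of 22. A match describes letters in a window and is not a binding site.

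The 45 genes differed widely in level. Per kilobase of transcript, the highest was KDM1A, the H3K4 demethylase of the CoREST complex also known as LSD1, at 94.8 CPM per kb as the mean of all libraries, followed by the H3K9 methyltransferase EHMT2 (39.2 CPM per kb), the H3K36 methyltransferase NSD2 (37.3 CPM per kb) and EZH2, the catalytic subunit of Polycomb repressive complex PRC2 (32.8 CPM per kb). The lowest were KMT2C (2.06 CPM per kb), KDM7A (1.87 CPM per kb) and SETDB2 (1.39 CPM per kb). EZH2 exceeded its relative EZH1 (4.48 CPM per kb), and KDM1A exceeded KDM1B (8.95 CPM per kb), while SUV39H1 and SUV39H2 were near each other (11.7 and 11.96 CPM per kb).

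Comparison of HUWE1-CS with HUWE1-P cells asks what differs between the cells with the catalytic mutation and the parental line. With edgeR's quasi-likelihood test over all 11350 genes and a limit of 0.01 on the adjusted p-value, 6 of the 45 members differed, 13.3% against 17% of all genes. KDM7A was higher (8.46% of all genes were), and DOT1L, SETD7, KMT2E, ASH1L and KMT2C were lower (8.58% of all genes were). The share of members called was thus close to that of the transcriptome, and the median log2 fold change of the members, -0.03, lay near that of all genes, -0.01. At an unadjusted p-value under 0.05 there were 22 members, and 36.1% of all genes. The count of called members was 2 without HUWE1-P replicate 3, 3 without HUWE1-CS replicate 2 and 9 without HUWE1-CS replicate 3, and DESeq2 called only KDM7A and DOT1L. Of all 11350 genes, these omissions called 1466, 1495 and 1650 and DESeq2 called 1088, against 1934 with edgeR on all libraries.

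Comparison of HUWE1-CS with HUWE1-WT cells, which share the editing and the resistance cassette, gave 5 members, 11.1% against 15.5% of all genes. KDM7A, EHMT2 and SETDB1 were higher (7.42% of all genes were), and DOT1L and SETD7 were lower (8.08% of all genes were). At an unadjusted p-value under 0.05 there were 14 members, and 35% of all genes. The median log2 fold change was -0.00 over the 45 members and -0.00 over all genes. DESeq2 called only KDM7A and EHMT2 here, and 998 of all genes, against 1759 with edgeR. Both comparisons use the same HUWE1-CS libraries, so the recurrence of KDM7A, DOT1L and SETD7 is not a second, independent observation.

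Between the control lines, HUWE1-WT and HUWE1-P, 0 of the 45 members were called by edgeR against 0.0617% of all genes. At an unadjusted p-value under 0.05 there were 3 members (KMT2A, KMT2D and ASH1L, all lower in HUWE1-WT) and 5.54% of all genes, and DESeq2 called 0 genes of the table. This contrast is also the test of the difference between the other comparisons. It follows that none of the 8 called members was shown to differ more from one control line than from the other, including ASH1L, KMT2C and KMT2E, called against HUWE1-P, and EHMT2 and SETDB1, called against HUWE1-WT. Of the 30 writers, 24 had a log2 fold change below 0 between the control lines, with a median of -0.10. Of all genes, 49.6% were above 0.

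**Figure D1:**
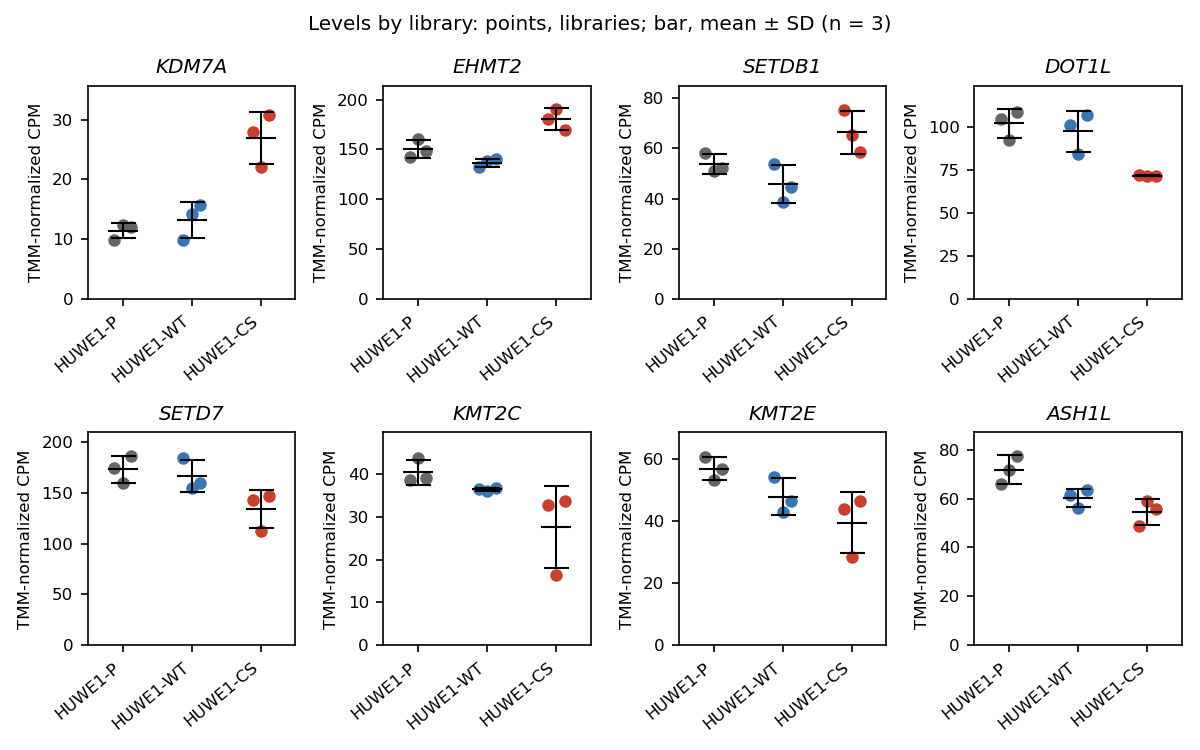
Levels of the 8 called members in each library, in TMM-normalized CPM on axes that start at 0. Points are libraries and bars are the mean ± SD of 3 libraries per line. For KDM7A, EHMT2 and SETDB1 all HUWE1-CS points lie above all 6 control points, for DOT1L, SETD7 and KMT2C all lie below them, and for KMT2E and ASH1L they overlap those of HUWE1-WT.

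The member that changed most was KDM7A (GRCh37 chromosome 7, 139784546 to 139876783, minus strand), a Jumonji demethylase of H3K9me2 and H3K27me2 with a PHD finger that reads H3K4me3. It measured 9.93, 12.35 and 12.04 CPM in HUWE1-P, 9.85, 14.2 and 15.7 CPM in HUWE1-WT and 27.9, 22.1 and 30.8 CPM in HUWE1-CS libraries. The lowest HUWE1-CS library was above the highest control, and the ranges of the control lines overlapped. The log2 fold change was 1.22 ± 0.225 (SE) against HUWE1-P (edgeR adjusted p = 8.94e-06) and 1.02 ± 0.220 against HUWE1-WT (edgeR adjusted p = 1.77e-04), a level 2.33 and 2.02 times as high. It was one of the least abundant members, with 16 to 27 counts per control library and 39 to 53 in HUWE1-CS cells, so counting error makes up much of its interval. Its nearest relatives in the set, KDM2A and KDM2B, demethylases of H3K36, had log2 fold changes of -0.31 (edgeR adjusted p = 0.0211) and -0.16 (edgeR adjusted p = 0.307) against HUWE1-P.

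DOT1L (chromosome 19, 2163932 to 2232577, plus strand), the H3K79 methyltransferase, which acts on transcribed gene bodies, fell in both comparisons. It stood at 105, 92.6 and 109 CPM in HUWE1-P and at 101, 84.0 and 107 CPM in HUWE1-WT libraries. In HUWE1-CS cells the libraries lay within 1 CPM of each other, at 71.8, 71.5 and 71.4 CPM. Every HUWE1-CS library was thus below every control. Against HUWE1-P this was a log2 fold change of -0.52 ± 0.108 (edgeR adjusted p = 9.44e-05), and against HUWE1-WT one of -0.44 ± 0.110 (edgeR adjusted p = 0.00116), and the second was -0.37 without HUWE1-WT replicate 3 (edgeR adjusted p = 0.0241). Exons of PLEKHJ1 cover 6.91% of the DOT1L transcript, and PLEKHJ1 had a log2 fold change of -0.13 against HUWE1-P (edgeR adjusted p = 0.465).

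The 8 genes grouped here as H3K4 writers, KMT2E among them by family only, all had a log2 fold change below 0 against HUWE1-P, with a median of -0.33, where 49.1% of all genes were above 0. KMT2C, KMT2E and SETD7 passed the test (17% of all genes did, 8.58% lower). Without KMT2E, the other 7 had a median of -0.29 and 2 calls. Against HUWE1-WT, 2 of the 8 were above 0, the median was -0.15 and SETD7 alone was called. Between the control lines, HUWE1-WT against HUWE1-P, 7 of the 8 were also below 0, with a median of -0.19 and 0 calls. With the length trend described further on removed, KMT2B, KMT2D and SETD1A were above 0 against HUWE1-P, so the direction was not shared by all 8 there. SETD7 (chromosome 4, 140417095 to 140527853, minus strand), an H3K4 monomethyltransferase that also modifies non-histone proteins, measured 174, 159 and 186 CPM in HUWE1-P and 184, 155 and 159 CPM in HUWE1-WT libraries. In HUWE1-CS libraries it measured 143, 112 and 147 CPM. All HUWE1-CS libraries lay below all controls, though by a small margin, and replicate 2 was the lowest. The log2 fold change was -0.37 ± 0.0887 against HUWE1-P (edgeR adjusted p = 5.93e-04) and -0.31 ± 0.0898 against HUWE1-WT (edgeR adjusted p = 0.00600). Without HUWE1-CS replicate 2 these values were -0.25 (edgeR adjusted p = 0.0399) and -0.19 (edgeR adjusted p = 0.151), so both calls depend on that library. The call against HUWE1-P was also lost without HUWE1-P replicate 3 (-0.31, edgeR adjusted p = 0.0175), and that against HUWE1-WT without HUWE1-WT replicate 1 (-0.23, edgeR adjusted p = 0.0795).

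KMT2C (chromosome 7, 151832007 to 152133729, minus strand) encodes MLL3, which with KMT2D places H3K4 monomethylation at enhancers. It measured 38.5, 43.8 and 39.0 CPM in HUWE1-P, 36.5, 35.99 and 36.6 CPM in HUWE1-WT and 32.6, 16.5 and 33.7 CPM in HUWE1-CS libraries. Replicate 2 of HUWE1-CS stood far below its companions. With it, the log2 fold change against HUWE1-P was -0.56 ± 0.170 (edgeR adjusted p = 0.00905), and without it -0.28 (edgeR adjusted p = 0.259). The call was also lost when HUWE1-P replicate 1, 2 or 3 was left out (-0.59, -0.50 and -0.58, edgeR adjusted p = 0.0175, 0.0447 and 0.0196). Against HUWE1-WT the value was -0.40 (edgeR adjusted p = 0.0814). Partial copies of KMT2C exist elsewhere in the genome, and how the counting treated reads shared with them is not given in the sources used here, so its counts are uncertain. KMT2D, its close relative, had a log2 fold change of -0.22 against HUWE1-P (edgeR adjusted p = 0.0824) and -0.00 against HUWE1-WT (edgeR adjusted p = 0.991).

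KMT2E (chromosome 7, 104581390 to 104755466, plus strand) encodes MLL5, a reader of H3K4me3 whose SET domain has no established activity on histones. Its levels were 60.8, 53.3 and 56.8 CPM in HUWE1-P, 54.5, 43.1 and 46.5 CPM in HUWE1-WT and 43.9, 28.4 and 46.5 CPM in HUWE1-CS libraries. The HUWE1-CS range was below that of HUWE1-P and overlapped that of HUWE1-WT, and replicate 2 was again the lowest. Its log2 fold change was -0.53 ± 0.144 against HUWE1-P (edgeR adjusted p = 0.00310), but -0.32 without HUWE1-CS replicate 2 (edgeR adjusted p = 0.115), and -0.28 against HUWE1-WT (edgeR adjusted p = 0.172). It was -0.48 without HUWE1-P replicate 1 (edgeR adjusted p = 0.0219) and -0.53 without HUWE1-P replicate 3 (edgeR adjusted p = 0.0125), so those libraries also decide the call. Of the other H3K4 writers, SETD1B, a catalytic subunit of a COMPASS complex, was nearest to the limit against HUWE1-P, at -0.46 (edgeR adjusted p = 0.0125), while its paralog SETD1A was at -0.01 with a 95% interval of -0.25 to 0.23. KMT2A, which encodes MLL1, was at -0.29 against HUWE1-P (edgeR adjusted p = 0.0508) and at 0.04 against HUWE1-WT. KMT2B was at -0.04 and 0.09. Exons of another annotated gene on the same strand cover 22.0% of the KMT2A transcript, so the KMT2A counts are uncertain.

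The 6 H3K9 writers differed among themselves. In each comparison 4 were above 0 (49.1% of all genes were against HUWE1-P and 50% against HUWE1-WT), with median log2 fold changes of 0.21 and 0.25, while SUV39H1 was at -0.40 in both. Against HUWE1-P 0 of the 6 were called, where 17% of all genes were. EHMT2 and SETDB1 were called against HUWE1-WT, where 15.5% of all genes were, 7.42% higher. Between the control lines, HUWE1-WT against HUWE1-P, all 6 were below 0, with a median of -0.07 and 0 calls. Of all genes, 49.6% were above 0 there. EHMT2 (chromosome 6, 31847536 to 31865475, minus strand), the G9a enzyme that places H3K9me1 and H3K9me2, measured 142, 160.5 and 148 CPM in HUWE1-P, 132, 138 and 140.1 CPM in HUWE1-WT and 181, 191 and 169.5 CPM in HUWE1-CS libraries. All HUWE1-CS libraries were above all controls. EHMT2 had a log2 fold change of 0.40 ± 0.0838 against HUWE1-WT (edgeR adjusted p = 9.82e-05) and 0.26 ± 0.0820 against HUWE1-P, where the edgeR adjusted p of 0.0105 lay just outside the limit. EHMT2 passed that limit when the length trend was removed, with RLE size factors, with a minimum of 10 counts, with only the lines compared, with the replicate number as a block, and without HUWE1-P replicate 2, HUWE1-WT replicate 1, HUWE1-WT replicate 2 or HUWE1-CS replicate 3. An antisense gene, EHMT2-AS1, covers 14.9% of the EHMT2 transcript, and since no use of strand is stated, reads of the pair cannot be told apart there. EHMT1, the partner of EHMT2 in its heterodimer, was at 0.20 against HUWE1-P (edgeR adjusted p = 0.158) and 0.22 against HUWE1-WT (edgeR adjusted p = 0.122).

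SETDB1 (chromosome 1, 150898739 to 150937220, plus strand) trimethylates H3K9 at repeats and zinc finger gene clusters together with TRIM28. It measured 58.4, 51.1 and 52.0 CPM in HUWE1-P, 53.9, 38.7 and 44.8 CPM in HUWE1-WT and 75.4, 65.2 and 58.6 CPM in HUWE1-CS libraries. The highest HUWE1-P library and the lowest HUWE1-CS library nearly touched, while the gap to HUWE1-WT was wider. The log2 fold change was 0.54 ± 0.133 against HUWE1-WT (edgeR adjusted p = 0.00112) and 0.31 ± 0.128 against HUWE1-P (edgeR adjusted p = 0.0656). The call was lost without HUWE1-CS replicate 1 (0.44, edgeR adjusted p = 0.0257) and without HUWE1-WT replicate 2 (0.43, edgeR adjusted p = 0.0226). Exons of CERS2 on the opposite strand cover 18.5% of the SETDB1 transcript, and CERS2 had a log2 fold change of 0.01 against HUWE1-WT (edgeR adjusted p = 0.956). The paralog SETDB2 was too low for a close estimate, with a 95% interval of -0.71 to 0.57 against HUWE1-P. The pair SUV39H1 and SUV39H2, which trimethylate H3K9 in pericentric heterochromatin, had opposite signs against HUWE1-P, -0.40 (edgeR adjusted p = 0.0742) and 0.22 (edgeR adjusted p = 0.309), and neither passed the test. An antisense gene covers 25.0% of the SUV39H1 transcript, so its counts are uncertain too.

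Among the H3K36 writers, ASH1L (chromosome 1, 155305059 to 155532953, minus strand), which dimethylates H3K36 and opposes Polycomb silencing, measured 65.8, 71.8 and 77.6 CPM in HUWE1-P and 61.4, 56.2 and 63.4 CPM in HUWE1-WT libraries. In HUWE1-CS libraries it measured 48.7, 59.0 and 55.7 CPM. The levels of HUWE1-WT lay between the others and overlapped those of HUWE1-CS. The log2 fold change was -0.40 ± 0.123 against HUWE1-P (edgeR adjusted p = 0.00869), -0.14 against HUWE1-WT (edgeR adjusted p = 0.453) and -0.26 between HUWE1-WT and HUWE1-P (edgeR adjusted p = 0.836). The call was lost without any single one of HUWE1-CS replicate 1 (-0.33, edgeR adjusted p = 0.0694), HUWE1-CS replicate 3 (-0.41, edgeR adjusted p = 0.0212), HUWE1-P replicate 2 (-0.41, edgeR adjusted p = 0.0213), HUWE1-P replicate 3 (-0.34, edgeR adjusted p = 0.0768) or HUWE1-WT replicate 3 (-0.40, edgeR adjusted p = 0.0102). The members of the NSD family diverged in sign against HUWE1-P: NSD1 was at 0.18 (edgeR adjusted p = 0.135), NSD2 at -0.22 (edgeR adjusted p = 0.0159) and NSD3 at -0.35 (edgeR adjusted p = 0.0482). SETD2, the enzyme for H3K36 trimethylation, which travels with elongating RNA polymerase II, was at -0.03 against HUWE1-P with a 95% interval of -0.25 to 0.19 and at -0.07 against HUWE1-WT with an interval of -0.28 to 0.15.

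Writers of the remaining marks gave no call, where 17% of all genes were called against HUWE1-P and 15.5% against HUWE1-WT. EZH2 was at -0.24 against HUWE1-P (edgeR adjusted p = 0.0895) and EZH1 at 0.13 (edgeR adjusted p = 0.704). All 3 H4K20 methyltransferases were above 0 in both comparisons, with medians of 0.17 and 0.41, where 49.1% and 50% of all genes were above 0. Between the control lines, HUWE1-WT against HUWE1-P, 1 of these 3 was above 0 and their median was -0.24. KMT5C, which trimethylates H4K20, was the largest of them at 0.73 against HUWE1-WT (edgeR adjusted p = 0.0405), on levels of 7.53, 13.6 and 6.40 CPM in HUWE1-WT and 13.7, 16.5 and 16.3 CPM in HUWE1-CS libraries. Exons of another annotated gene on the same strand cover 14.2% of the KMT5C transcript, so its counts are uncertain. KMT5B had 0.41 against HUWE1-WT (edgeR adjusted p = 0.0418) and KMT5A, the monomethyltransferase, 0.08. The other SETD proteins, of which SETD3 methylates a histidine of actin, had log2 fold changes between -0.37 and 0.45 against HUWE1-P and no call. Exons of CNOT1, on the opposite strand, cover 21.6% of the SETD6 transcript. SETD9 had the widest interval of all members, from -1.12 to 0.38.

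Of the 15 demethylases, KDM7A alone was called in either comparison (6.67%, against 17% of all genes for HUWE1-P and 15.5% for HUWE1-WT). KDM1A had the narrowest interval of all members, with a log2 fold change of -0.01 against HUWE1-P and a 95% interval of -0.14 to 0.13. KDM1A levels spanned 277 to 302 CPM in HUWE1-P and 282 to 290.4 CPM in HUWE1-CS libraries, one range inside the other, and 296 to 312 CPM in HUWE1-WT libraries, above all HUWE1-CS libraries. Against HUWE1-WT the log2 fold change was -0.07 (edgeR adjusted p = 0.480). KDM1B was at -0.19 (interval -0.51 to 0.12). The H3K9 demethylases KDM3A and KDM3B were at 0.23 and 0.08. In the KDM4 family, which removes H3K9 and H3K36 trimethylation, KDM4A was above all 6 controls at 65.9, 64.1 and 66.8 CPM, with log2 fold changes of 0.28 (edgeR adjusted p = 0.0785) and 0.32 (edgeR adjusted p = 0.0492) against HUWE1-P and HUWE1-WT. Exons of another annotated gene on the same strand cover 46.5% of the KDM4A transcript, and those of KDM4A-AS1 10.5%, so its counts are uncertain. KDM4B was at 0.21 and KDM4C at -0.03 against HUWE1-P. Of the H3K4 demethylases, KDM5C was at 0.26 (edgeR adjusted p = 0.0457), KDM5A at -0.21 (edgeR adjusted p = 0.271) and KDM5B at -0.05 (edgeR adjusted p = 0.873) against HUWE1-P. The H3K27 demethylases KDM6A and KDM6B were at -0.03 and -0.37, neither called.

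**Figure D2:**
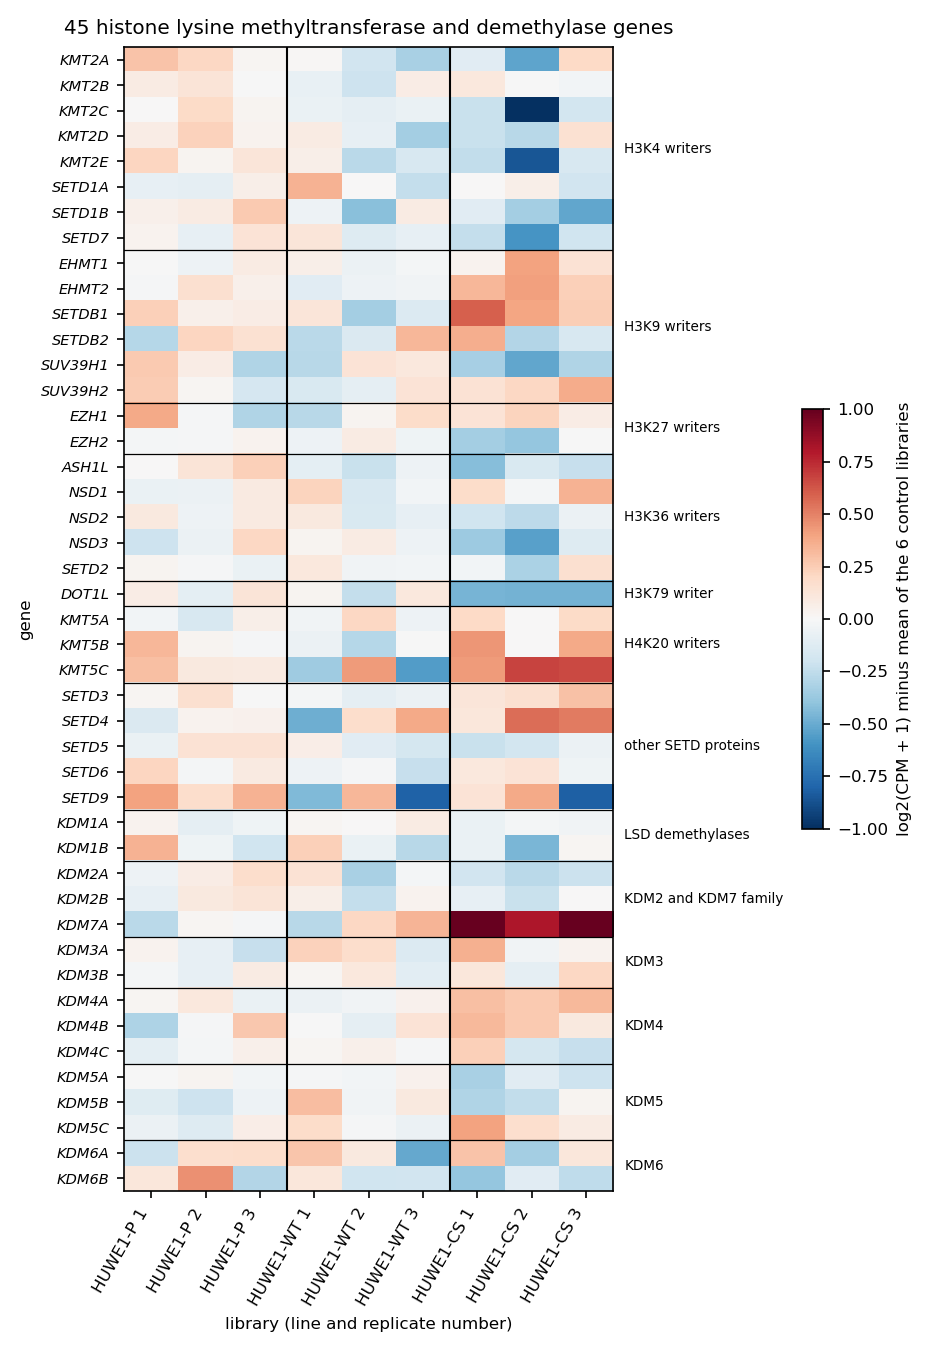
Level of each of the 45 members in each of the 9 libraries, as log2(CPM + 1) minus the mean of the 6 control libraries, with members in rows grouped by role and libraries in columns. Colours saturate at 1 and -1. KDM7A is the reddest row in the HUWE1-CS libraries, and KMT2C and KMT2E are the deepest blue in HUWE1-CS replicate 2.

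Ranked by range instead of by test, 5 members lay above all 6 control libraries in every HUWE1-CS library (EHMT2, SETDB1, KMT5C, KDM7A and KDM4A), where 12.9% of all genes did, and 5 lay below (KMT2C, SETD7, SUV39H1, DOT1L and KDM5A), where 13.4% of all genes did. In either direction 26.3% of all genes lay beyond all controls. Tested against the mean of both control lines, a comparison added after seeing the data, edgeR called 6 members (EHMT2, SETDB1 and KDM7A higher; KMT2C, SETD7 and DOT1L lower) and 21.4% of all genes.

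**Figure D3:**
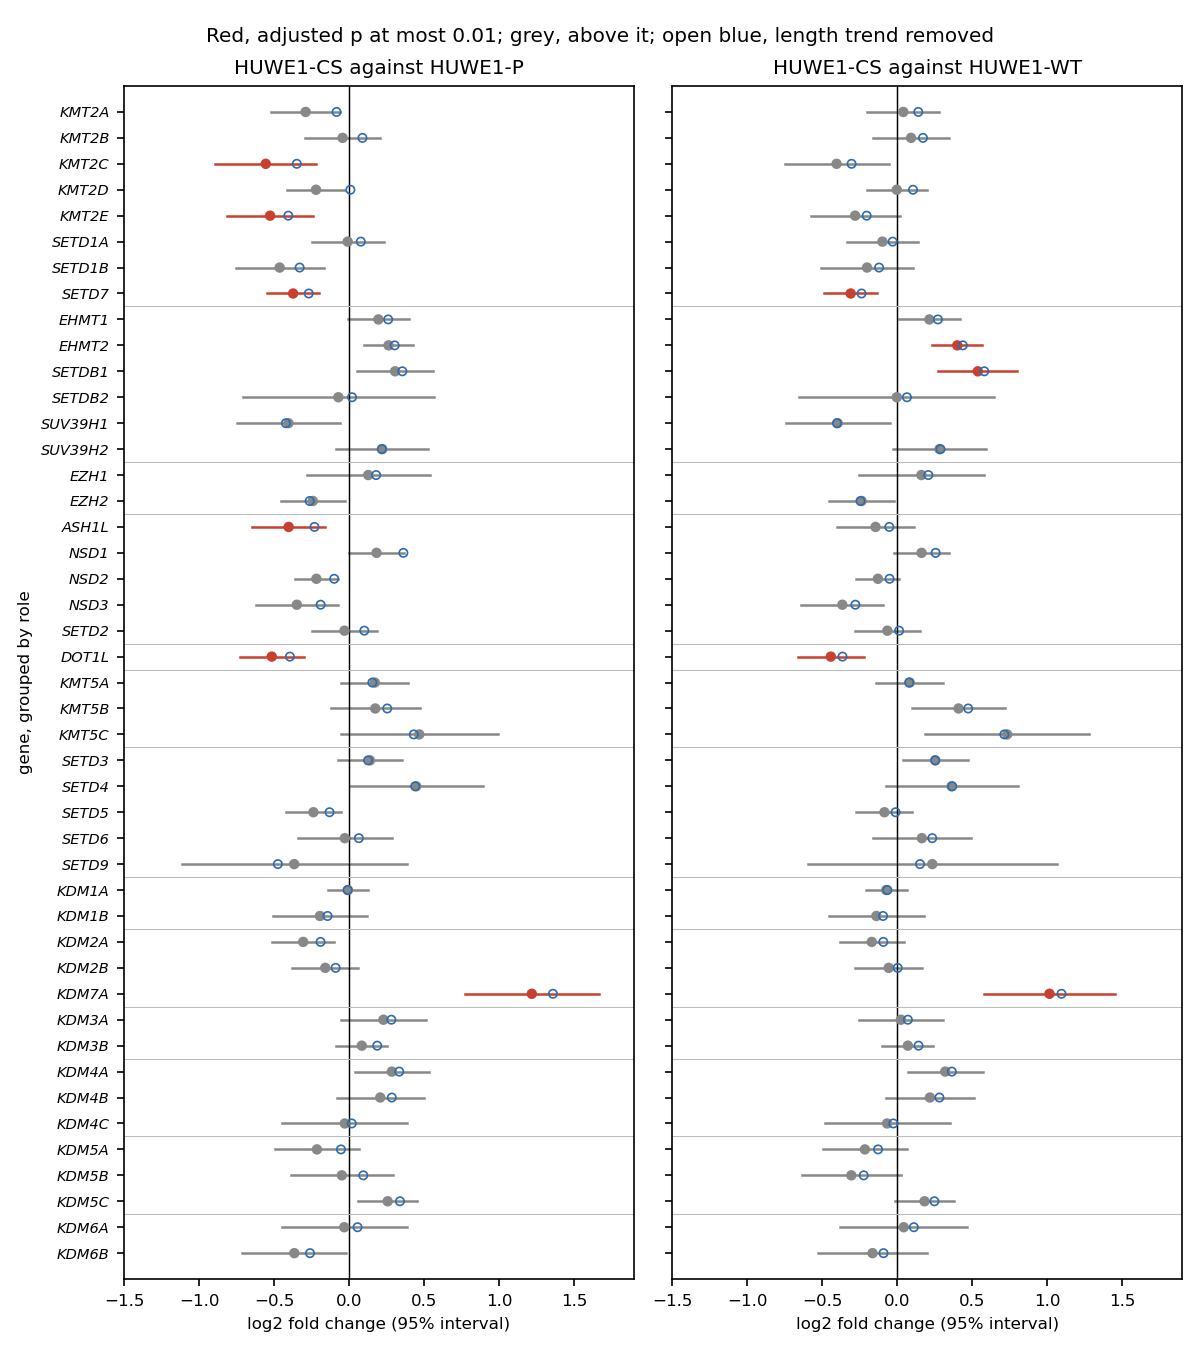
Log2 fold change of each member with its 95% interval, in HUWE1-CS against HUWE1-P (left) and against HUWE1-WT (right), red where the edgeR adjusted p was at most 0.01. Open blue circles show the value after removal of the length trend. In HUWE1-CS against HUWE1-P 23 of the 45 intervals lie wholly within 0.5 of 0, and 43 within 1.

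The width of these intervals sets what could be seen. Against HUWE1-P, 23 of the 45 intervals lay wholly within a log2 fold change of 0.5 either way and 43 within 1, and against HUWE1-WT 25 and 42 did. The intervals that reached beyond 1 were those of SETD9 and KDM7A in both comparisons and of KMT5C against HUWE1-WT. For an uncalled member, the interval gives the sizes of difference these libraries leave possible.

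Histone lysine methyltransferases and demethylases are long genes, and the fold changes of HUWE1-CS cells fell with transcript length across the whole table. The canonical transcripts of the members had a median length of 6094 bases, from 1396 (SETD9) to 20635 (KMT2D), against 3357.5 bases in all 10994 genes with a length. Of the 45 members, 36 were longer than that median, and 29 fell in the longest 3 of 10 equal bins of genes. Across genes, which are not independent replicates, Spearman's rho between log2 fold change and length was -0.262 in HUWE1-CS against HUWE1-P, -0.199 in HUWE1-CS against HUWE1-WT and -0.155 in HUWE1-WT against HUWE1-P. The second was -0.129 without HUWE1-CS replicate 2, and the last was -0.0513 without HUWE1-WT replicate 2, -0.0872 without HUWE1-P replicate 3 and -0.0722 with genomic span in place of transcript length. Within the 45 members it was -0.438, -0.429 and -0.119. In the shortest bin of all genes the median log2 fold change against HUWE1-P was 0.19, with 23.1% of genes higher and 3.264% lower, and in the longest bin it was -0.15, with 3.09% higher and 16.5% lower. The 5 members that fell against HUWE1-P were all longer than the members' own median, KMT2C at 16860 bases, ASH1L at 12037, KMT2E at 7782, DOT1L at 7652 and SETD7 at 6808, and so was KDM7A, which rose, at 9220 bases.

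The trend also varied between libraries of the same line. Taking each library's deviation from the mean of all 9, rho with length was 0.169, 0.121 and 0.262 in HUWE1-P, 0.227, -0.0717 and 0.0586 in HUWE1-WT and -0.101, -0.329 and -0.123 in HUWE1-CS replicates 1, 2 and 3. HUWE1-CS replicate 2, in which KMT2C, KMT2E and SETD7 were lowest, had the most negative rho. The part of this trend in the levels of those members, and its cause, was not tested.

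With the trend over all genes removed from the fit, rho over all genes went to -0.0073 in HUWE1-CS against HUWE1-P, while within the 45 members it was still -0.237 against HUWE1-P and -0.325 against HUWE1-WT, and the members' median log2 fold change moved from -0.03 to 0.06. The number of members called stayed at 6 (16.6% of all genes were), but 3 of the names changed, giving 4 higher (8.13% of all genes) and 2 lower (8.42% of all genes). KDM7A, DOT1L (-0.39, edgeR adjusted p = 0.00249) and SETD7 (-0.27, edgeR adjusted p = 0.00928) kept their calls. EHMT2 (0.30, edgeR adjusted p = 0.00167), NSD1 (0.36, edgeR adjusted p = 5.31e-04) and KDM5C (0.34, edgeR adjusted p = 0.00466) gained one. KMT2E (-0.41, edgeR adjusted p = 0.0228), KMT2C (-0.35, edgeR adjusted p = 0.117) and ASH1L (-0.23, edgeR adjusted p = 0.164) lost theirs. Of all 45 members 9 changed sign, among them KMT2B, KMT2D, SETD1A and SETD2, all of them uncalled and at most 0.22 in size before. The median of the H3K4 writers, taken as the distance from the trend at each gene's length, was -0.18 instead of -0.33. Against HUWE1-WT, KDM7A, EHMT2, SETDB1 and DOT1L kept their calls and SETD7 did not (-0.24, edgeR adjusted p = 0.0267), with 15.6% of all genes called, 7.47% higher and 8.15% lower.

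The partners of these enzymes were followed in lists typed from general knowledge, each read against the 17% of all genes called in HUWE1-CS against HUWE1-P and the 15.5% in HUWE1-CS against HUWE1-WT. Of 13 subunits of the COMPASS complexes, which carry the H3K4 methyltransferases, 1 was lower and 0 higher in both comparisons. It was BOD1, known best for chromosome biorientation, at 60.3 ± 4.60 CPM in HUWE1-P, 66.9 ± 3.68 CPM in HUWE1-WT and 43.5 ± 1.57 CPM in HUWE1-CS cells (SD, n = 3; edgeR adjusted p = 0.00490 and 1.13e-04). Of 10 PRC2 subunits, 1 was lower and 0 higher: PHF19, which brings PRC2 to H3K36-methylated chromatin, with log2 fold changes of -0.63 (edgeR adjusted p = 6.92e-05) and -0.62 (edgeR adjusted p = 1.33e-04) against HUWE1-P and HUWE1-WT. Of 6 genes listed as partners of DOT1L, 1 was lower, MLLT1 (ENL), a reader of acetylated histones, at -0.48 in both (edgeR adjusted p = 2.17e-04 and 3.04e-04).

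Of 11 proteins that work with the H3K9 methyltransferases, 1 was higher and 1 lower in each comparison. TRIM28 (KAP1), the corepressor that recruits SETDB1, rose from 1332 ± 10.5 CPM in HUWE1-P and 1372 ± 35.5 CPM in HUWE1-WT to 1634 ± 120.2 CPM in HUWE1-CS cells (SD, n = 3), by 0.29 and 0.25 on the log2 scale (edgeR adjusted p = 1.03e-05 and 1.82e-04). CBX5, the heterochromatin protein HP1alpha, was lower against HUWE1-P at -0.29 (edgeR adjusted p = 0.00445) and had -0.18 against HUWE1-WT (edgeR adjusted p = 0.0949). The gene lower against HUWE1-WT was CBX1, heterochromatin protein HP1beta, at -0.31 (edgeR adjusted p = 8.18e-04). Of 8 partners of KDM1A in CoREST, HDAC1, its histone deacetylase, was higher at 0.49 and 0.45 (edgeR adjusted p = 3.25e-09 and 5.03e-08), with 296 ± 1.57 CPM in HUWE1-P and 416 ± 25.5 CPM in HUWE1-CS cells (SD, n = 3), and 0 were lower. Of 17 further genes outside the symbol rule, listed as lysine methyltransferases and demethylases or members of the same protein families, 0 were called in either comparison.

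Of 13 enzymes that make or consume S-adenosylmethionine, alpha-ketoglutarate or their precursors, 2 were higher and 4 lower against HUWE1-P, and 2 were higher and 2 lower against HUWE1-WT. IDH2, the mitochondrial isocitrate dehydrogenase that yields alpha-ketoglutarate, rose by 0.89 and 0.60 (edgeR adjusted p = 7.78e-07 and 6.37e-04), and MTHFD1, of the folate cycle, fell by 0.33 and 0.30 (edgeR adjusted p = 1.87e-04 and 7.79e-04) on the log2 scale. Of 33 large chromatin regulators, a list not matched to the members in length, 8 were lower and 0 higher against HUWE1-P, and 4 were lower and 1 higher against HUWE1-WT. CHD3, a remodelling ATPase of the NuRD complex, had the smallest p-value, at -0.82 and -0.78 (edgeR adjusted p = 1.23e-07 and 6.39e-07). The gene that was higher against HUWE1-WT was BRD1, a scaffold of histone acetyltransferase complexes, at 0.59 (edgeR adjusted p = 1.97e-04). The median length of this list was 8467 bases, against 6094 bases for the members. Its median log2 fold change against HUWE1-P was -0.12, and after subtraction of the trend at each gene's length it was -0.00.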

How the data were processed

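Polyadenylated RNA of 9 HCT116 libraries, 3 for each line, was sequenced with single-end reads (NEBNext Ultra II RNA kit). Per the submitters' processing notes and the study's methods, the authors used bcl2fastq 2.20, trimmed with Skewer, mapped to hg19 with STAR 2.5.4 and tested with edgeR 3.26.8. The table used here holds counts per gene as deposited by the authors, without normalization. The counting tool, its annotation and its use of strand are not given in the sources used here. The authors' tables of their own comparisons (log2 fold change, log2 CPM, F, p-value, FDR) were not used.

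Groups and replicate numbers came from the sample labels. Counts were normalized by TMM and tested in R 4.3.3 with edgeR 4.0.16 (glmQLFit with legacy = TRUE, glmQLFTest), in 1 fit of the 9 libraries whose design held only the line. Genes with a Benjamini-Hochberg adjusted p of at most 0.01 over all 11350 genes were called. The 147 rows without a symbol, with 0.505% of the counts, were kept. At 1610984 to 2060349 counts per library, intervals (95%, from the standard errors) cover counting error and the spread between libraries. The spread of each gene was moderated towards that of all genes with 89.5 prior degrees of freedom. A member's own spread over the 3 libraries of a line thus weighed little in its p-value and interval. Chi-square per degree of freedom between replicates was 1.16 to 1.65, so no library was treated as a duplicate.

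Canonical transcript lengths came from GENCODE 44 on GRCh37 for 10994 genes, 10772 by symbol and 222 by present symbol, leaving 356 without one. Length was removed by a lowess trend (span 0.3) of each library, added to the offsets. Gene levels per kb divide CPM by that length. Promoters came from RefSeq.

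The members and all lists were chosen with earlier results of these data known. Members named in full are those called, their close paralogs, and those with the widest and narrowest intervals. From each list the gene with the smallest p in each direction among those called in HUWE1-CS against HUWE1-P is named, and CBX1 and BRD1 were added after their values were seen. The script was tested on simulated data. Alternatives were DESeq2 1.42.0, limma 3.58.1 (voom), scaling by total counts alone or by RLE size factors, the present edgeR estimator, a minimum of 10 counts, fits of the lines compared only, a replicate block, removal of the length trend with and without that block, coding length in place of transcript length, omission of each library and a limit of 0.05, and, added after seeing the data, the mean of both control lines and genomic span.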

Additional observations from a re-analysis of the deposited data

How the results depend on the processing

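Of 421 values recomputed under another setting, 363 were classed as unchanged. For a called member this meant the same sign and the same side of the limit. For a count of calls it meant a similar number, whichever genes were called. For a median or rho it meant a shift smaller than an SD between replicates. None of the 8 called members changed sign in the comparison that called it. Among the others, removal of the length trend turned the sign of 9 members against HUWE1-P and 4 against HUWE1-WT, all uncalled. Against HUWE1-P, 6 members were called with edgeR, 2 with DESeq2 and 13 at an adjusted p of at most 0.05, and 2 to 9 with 1 library left out. Against HUWE1-WT the counts were 5, 2, 9 and 4 to 5. Over all genes, the same settings called 1934, 1088, 2999 and 1466 to 2018 against HUWE1-P. The numbers against HUWE1-WT were 1759, 998, 2774 and 1373 to 1766. Over the lists of partner genes, the 20 calls against HUWE1-P became 10 with DESeq2 and 13 to 21 with 1 library left out, and the 15 calls against HUWE1-WT became 24 at 0.05 and 12 to 15 with 1 library left out. The members' median log2 fold change against HUWE1-P, -0.03, was 0.0565 with the length trend removed, 0.0486 with the trend removed and a replicate block, and -0.0838 to -0.00814 with 1 library left out. Against HUWE1-WT, -0.00 became 0.0717, 0.0730 and -0.0602 to 0.0873. KDM7A (both comparisons), DOT1L (against HUWE1-P) and EHMT2 (against HUWE1-WT) kept their calls in every setting tried. KMT2E kept it in 14 of 21 settings, KMT2C in 12 and ASH1L in 10. Leaving out a library lowers the number of samples; the cause of the other shifts was not tested. The replicate number as a block gave 8, 5 and 0 called members in HUWE1-CS against HUWE1-P, HUWE1-CS against HUWE1-WT and HUWE1-WT against HUWE1-P, gaining EHMT2 and NSD2 in the first. Over all genes it gave 2021, 1835 and 7 calls. The sample labels name no pairing behind the block. Same-numbered libraries correlated weakly, at -0.0316 to 0.0934, in their deviations from the line means. Still, 8 of 9 libraries correlated best with one of their own number. The main fit held no term for the number, and whether same-numbered libraries were handled together was not tested. Depth limits the low members most, SETD9, SETDB2 and KMT5C among them.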

Other observations

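KDM5C, an H3K4 demethylase gene on the X chromosome, lies 304 kb from the edited HUWE1 gene on GRCh37 (KDM5C at 53205465 to 53254604, HUWE1 at 53559057 to 53713697). HUWE1-P libraries had 94.97, 90.4 and 104 CPM of KDM5C, HUWE1-WT libraries 112, 98.2 and 94.8 CPM, and HUWE1-CS libraries 131, 111 and 104.5 CPM. The HUWE1-CS range overlapped that of HUWE1-WT and lay just above that of HUWE1-P. Of the other members on the X chromosome, SUV39H1 had a log2 fold change of -0.40 against HUWE1-WT (edgeR adjusted p = 0.0870) and KDM6A of 0.04 (edgeR adjusted p = 0.915).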
